A study of Mus musculus with 18 samples.

Results

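Sox genes encode transcription factors that share the HMG box, the DNA-binding domain first described in Sry. The 6 genes followed here are Sox2, Sox3, Sox4, Sox9, Sox11 and Sox12, chosen by their gene symbols, with Sox1 left out. All 6 were among the 10965 genes in a table of TPM (transcript abundance scaled for transcript length and library size) from mouse ESCs with and without Zeb2. Of 19 mouse Sox genes looked for, 11 were in the table, so that Sox1 and 4 other Sox genes (Sox7, Sox13, Sox15 and Sox21) were measured beside the 6. The table holds genes that reached 5 TPM in at least 3 libraries, and Sox9 did so in the Ctrl d6 libraries alone, so its place in the table already required a high value there.

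Sox proteins bind the minor groove of DNA, bend it, and act together with partner factors, above all POU and PAX proteins. Sox2 and Sox3 belong to subgroup B1: Sox2 works with Oct4 (encoded by Pou5f1) in pluripotent cells, and both keep neural progenitors undifferentiated. Sox4, Sox11 and Sox12 form subgroup C, whose members are active in neural and mesenchymal progenitors and in young neurons. Sox9, of subgroup E, is known for cartilage formation, neural crest and neural stem cells.

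RNA-seq libraries came from CD1 mouse ESCs of 2 genotypes, control cells with both Zeb2 alleles flanked by loxP sites (Ctrl) and Zeb2 -/- cells (KO). Each was sampled as ESCs in 2i + LIF (d0) and again at d4 and d6 of neural differentiation (ND), which makes 6 groups of 3 libraries. From d0 both genotypes were kept as embryoid bodies in medium with 15% serum, and from d4 in N2B27 with 500 nM retinoic acid. The labels give CD1 for both genotypes, and in the methods the CD1 lines are those from which KO lines were made with Cre. Which clones were sequenced is not given in the sources used here, so genotype and clone cannot be told apart. The 3 libraries of a group are described as independent experiments.

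The reads on the genes of the table, recovered from the TPM values, ranged from 9622622 to 15617675 per library. Zeb2 itself had 46, 546 and 2593 reads summed over the 3 Ctrl libraries of each successive day, and 5, 51 and 233 over the KO libraries. Of the markers fixed for pluripotent cells, 7 of 7 were in the table, and their summed TPM ranged from 4124 to 4288 in Ctrl and from 4229 to 4570 in KO at d0. At d6 it ranged from 499 to 571 in Ctrl and from 2876 to 3187 in KO. The 7 of 8 neural progenitor markers in the table, of which Sox1 is one, summed to 402 to 444 TPM in Ctrl and 66.3 to 79.6 TPM in KO at d6. Of the 7, Hes5 and Cdh2 reached 5 TPM in Ctrl libraries alone, and Cdh2 had 85.2 TPM in Ctrl and 1.96 TPM in KO at d6. Both marker sums thus moved with genotype at d6; their part in the Sox values was not tested. In these bulk libraries, fewer cells of a type and less RNA per cell cannot be told apart.

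Differences are given on the log2(TPM + 1) scale, as KO minus Ctrl or later minus earlier day, with the SE of limma. They understate the change of genes with few transcripts. A difference was called where the p adjusted over all 10965 genes (Benjamini-Hochberg) was below 0.01. Between KO and Ctrl, all genes had medians of -0.07 (d0), -0.16 (d4) and -0.14 (d6), and the step from d0 to d4 had a median of 0.26 in Ctrl and 0.15 in KO. After libraries were rescaled by median ratios, these medians lay between -0.03 and 0.01.

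At d0 the 6 genes ranged in Ctrl from a mean of 1085 TPM for Sox2 down to 0.327 TPM for Sox9. TPM is a value per length of transcript, so these levels can be set side by side. Sox2 was the most abundant and Sox9 the least abundant of the 6 in every group. Between them the order moved: in Ctrl, Sox12 was second at d0, Sox4 at d4 and Sox3 at d6, while in KO Sox12 was second on all 3 days. By d6, Sox3, Sox4, Sox9, Sox11 and Sox12 were lower in KO than in Ctrl, and Sox2 was at the same mean of 538 TPM in both genotypes.

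**Figure D1:**
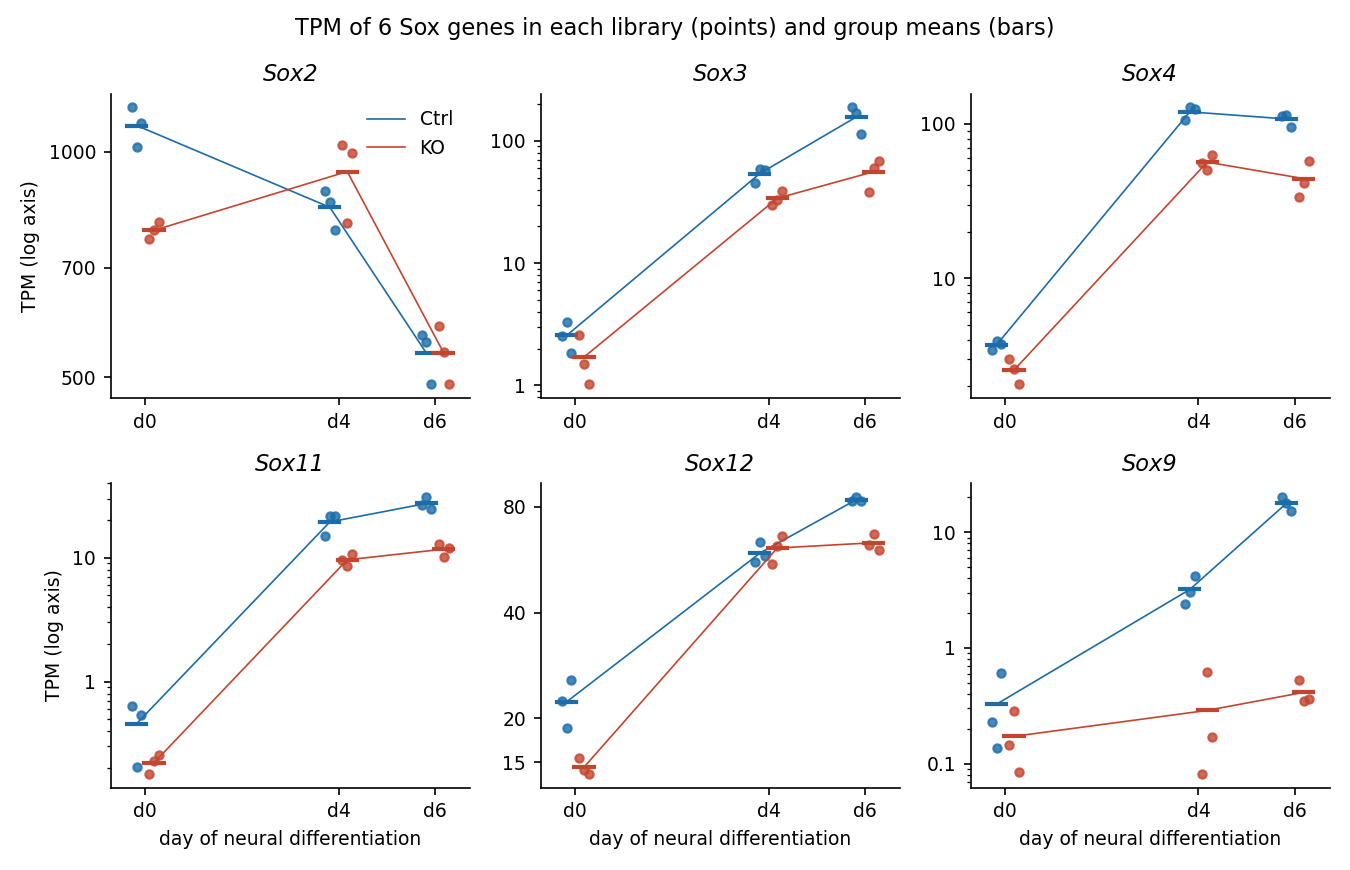
TPM on a log axis against day of ND for the 6 Sox genes, with 1 point per library (Ctrl in blue, KO in red), a bar at each mean of 3 libraries and thin lines between means. Sox2 falls to 538 TPM at d6 in both genotypes, whereas the other 5 genes end lower in KO, Sox9 at 0.414 against 17.8 TPM; a library without Sox9 reads is shown at the value of the 1 read that the deposited TPM include.

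Sox2 (ENSMUSG00000074637) is a gene of 1 exon on chromosome 3, from 34650405 to 34652461 of GRCm38 on the plus strand, inside the noncoding Sox2ot gene but with no exon in common. Its TPM in the 3 Ctrl libraries was 1147, 1015 and 1092 at d0, 887, 857 and 786 at d4, and 569, 557 and 489 at d6. In the KO libraries it was 764, 786 and 807 at d0, 1023, 803 and 998 at d4, and 585, 541 and 489 at d6. Sox2 thus began lower in KO, where no d0 library reached the lowest Ctrl library, while the genotypes overlapped at d4 and at d6. Each value rests on 3155 to 9875 reads, the deepest coverage among the 6 genes.

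The KO minus Ctrl difference of Sox2 was -0.46 ± 0.09 at d0 (SE, n = 3 libraries per group; adjusted p = 0.000804, limma), 0.15 ± 0.09 at d4 (adjusted p = 0.168) and 0.00 ± 0.09 at d6 (adjusted p = 0.994). The 95% interval at d6 ran from -0.19 to 0.19. The d0 call was lost when the median of the surrounding 10 Mb was subtracted from each library, which gave -0.35 (adjusted p = 0.0182). In Ctrl, Sox2 fell by 0.36 from d0 to d4 (adjusted p = 0.00191) and by a further 0.65 from d4 to d6 (adjusted p = 1.82e-05). In KO the change to d4 was 0.25 ± 0.09 (adjusted p = 0.0231), and from d4 to d6 Sox2 fell by 0.80 (adjusted p = 2.30e-06). The first of the Ctrl steps was not called after quantile normalization, with -0.18 (adjusted p = 0.102), without Ctrl d0 replicate 1, with -0.32 (adjusted p = 0.0115), or without Ctrl d4 replicate 3, with -0.31 (adjusted p = 0.0125). Without KO d4 replicate 2, the lowest of its group, the change to d4 in KO was called, at 0.36 (adjusted p = 0.00154). Ordered by mean, the groups ran from Ctrl d0 through KO d4 and Ctrl d4 to KO d0, each overlapping the next, and the d6 groups overlapped each other below all others.

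Sox3 (ENSMUSG00000045179), the second B1 gene, lies on chromosome X from 60891366 to 60893430, minus strand, in 1 exon. In Ctrl its TPM was 2.55, 3.30 and 1.84 at d0, 45.6, 58.9 and 57.8 at d4, and 188, 169 and 114 at d6. In KO it was 2.60, 1.50 and 1.02 at d0, 29.9, 33.0 and 38.8 at d4, and 38.4, 60.5 and 69.1 at d6. The genotypes overlapped at d0, where 5 to 23 reads stood behind each value, and were apart at d4 and d6, with the gap widest at d6. Sox3 rose from d0 to d4 in both genotypes, by 3.96 ± 0.25 in Ctrl (adjusted p = 5.89e-10) and by 3.72 ± 0.25 in KO (adjusted p = 1.39e-09). From d4 to d6 it rose again in Ctrl, from a mean of 54.1 to 157 TPM (adjusted p = 8.08e-05), and in KO the change was 0.67 (adjusted p = 0.0296), called without KO d6 replicate 1, at 0.92 (adjusted p = 0.00529).

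At d6 Sox3 was lower in KO by -1.48 ± 0.25 (adjusted p = 7.11e-05), with a mean of 56.0 ± 15.8 TPM (SD, n = 3) against 157 ± 38.7 TPM. The difference was -0.66 ± 0.25 at d4 (adjusted p = 0.0310) and -0.42 ± 0.25 at d0 (adjusted p = 0.199). A fit to the 6 libraries of d4 alone called the d4 difference, at an adjusted p of 0.00339. The KO libraries at d6, from 38.4 to 69.1 TPM, spanned the range of the Ctrl libraries at d4, from 45.6 to 58.9 TPM. Of its words of 36 bases, the length of the reads, 10 of 2030 (0.493%) also occur in another gene, Sox1.

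Added together, Sox2 and Sox3 came to 1149.5, 1018 and 1094 TPM in Ctrl and 766, 788 and 808 TPM in KO at d0. At d4 the sums were 933, 916 and 844 TPM in Ctrl and 1053, 836 and 1036 TPM in KO, and at d6 757, 726 and 603 TPM in Ctrl and 623, 602 and 558 TPM in KO. Relative to Ctrl, the KO sum was thus 72.4% on d0, 109% on d4 and 85.5% on d6, and only the d0 libraries did not overlap. In the exact two-sided permutation test p was 0.1, 0.4 and 0.2, where 3 against 3 libraries can give no p below 0.1. The makeup of the sum differed: Sox3 took 18.8% to 24.8% of it in Ctrl and 6.17% to 12.4% in KO at d6, and 4.89% to 6.85% and 2.84% to 3.95% at d4. At d0 its share was 0.126% to 0.339% over the 6 libraries. With Sox1, the remaining B1 gene, included, the sum at d6 was 753 ± 87.5 TPM in Ctrl and 605 ± 35.7 TPM in KO (SD, n = 3). Sox1 itself had 58.4 ± 6.07 and 10.9 ± 2.14 TPM there.

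**Figure D2:**
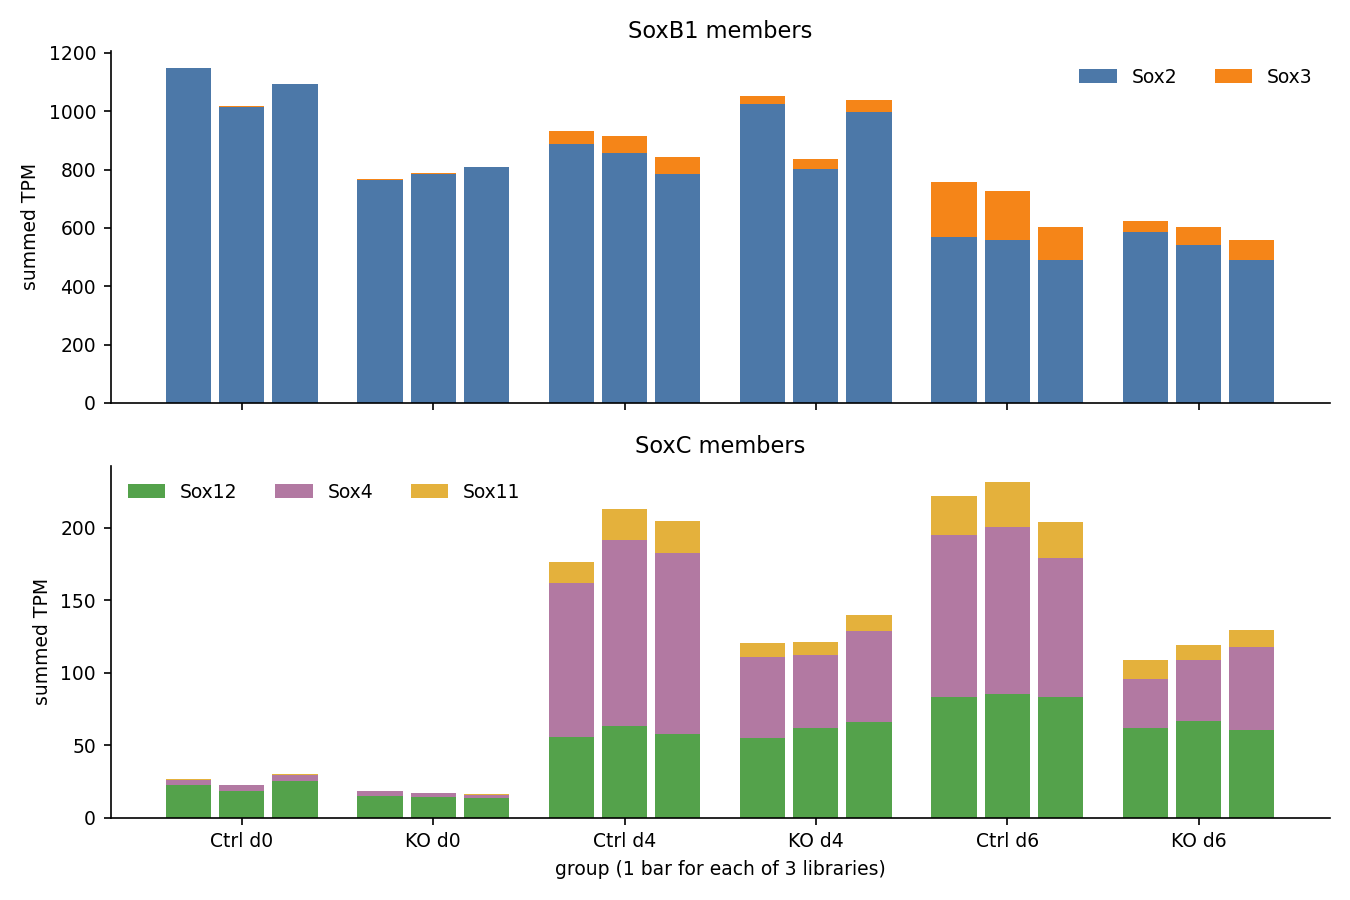
Summed TPM of the SoxB1 genes (top) and of the SoxC genes (bottom) in each of the 18 libraries, 3 bars per group, with the genes stacked. Sox2 makes up most of the B1 sum throughout, with a Sox3 part of 18.8% to 24.8% in Ctrl at d6, and the C sum at d6 is 204 to 232 TPM in Ctrl and 109 to 129.8 TPM in KO.

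The 3 SoxC genes rose together from d0 to d4 in both genotypes and were each lower in KO at d6, and their upstream sequences are shown for that reason. RefSeq promoter windows (GRCm38.p6) were held for 4 of the 6 genes, Sox2 and the 3 SoxC genes. The 230 bases from 250 to 21 bases before the annotated start are printed 5′ to 3′, with CACCT or its reverse complement AGGTG in capitals, the short sequence that Zeb2 is known to bind in pairs. They lie at chr13:28953720-28953949 (Sox4), chr12:27342739-27342968 (Sox11) and chr2:152398067-152398296 (Sox12), all on the minus strand.
Sox4: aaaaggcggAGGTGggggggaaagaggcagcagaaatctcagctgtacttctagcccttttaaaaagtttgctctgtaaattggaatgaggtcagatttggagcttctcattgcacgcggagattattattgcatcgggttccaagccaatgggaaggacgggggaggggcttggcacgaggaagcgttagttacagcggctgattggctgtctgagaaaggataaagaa
Sox11: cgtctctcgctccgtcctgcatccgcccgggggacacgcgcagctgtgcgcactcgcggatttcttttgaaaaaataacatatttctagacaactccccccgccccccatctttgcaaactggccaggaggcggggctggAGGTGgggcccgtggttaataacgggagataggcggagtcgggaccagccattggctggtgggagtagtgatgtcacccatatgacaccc
Sox12: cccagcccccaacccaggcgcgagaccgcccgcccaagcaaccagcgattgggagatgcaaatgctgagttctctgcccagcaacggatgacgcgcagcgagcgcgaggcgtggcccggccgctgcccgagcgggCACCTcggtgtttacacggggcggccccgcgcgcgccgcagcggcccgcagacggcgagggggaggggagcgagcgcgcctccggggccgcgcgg
Each of the 3 windows held 1 match, which began 241 bases before the start in Sox4, 110 in Sox11 and 115 in Sox12, and the window of Sox2 held 0. The start is that of the promoter entry and differs from the gene coordinates given for these genes. Either strand counted, 43.5% of all 32817 promoter windows of this length held CACCT. None of the 4 held the longer CACCTG, which contains it and which 16.0% of windows held. The octamer ATGCAAAT, a site of POU factors, occurred once in the Sox12 window and in 1.53% of all windows. CCAAT or its reverse complement occurred in all 4 windows and in 32.2% of all windows. The motif CATTGT, which Sox proteins can bind, was in none of the 4 windows and in 10.1% of all. These matches are a description of the letters and say nothing of binding.

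Sox4 (ENSMUSG00000076431) is a gene of 1 exon on chromosome 13, from 28948919 to 28953713 on the minus strand. In Ctrl its TPM was 3.44, 3.91 and 3.76 at d0, 106, 128 and 125 at d4, and 112, 115 and 95.9 at d6. In KO it was 2.98, 2.58 and 2.05 at d0, 56.0, 50.6 and 63.0 at d4, and 33.8, 41.6 and 57.2 at d6. All KO libraries lay below all Ctrl libraries on each of the 3 days. The exons of Sox4 overlap those of Gm26735, a gene on the other strand, and 54.5% of the 36-base words of Sox4 also occur in other genes, nearly all of them in Gm26735, which was not analysed here. Since the counting is not stated to have used strand, reads of both genes cannot be told apart.

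From d0 to d4 Sox4 rose by 4.68 ± 0.15 in Ctrl (adjusted p = 3.99e-13) and by 4.03 ± 0.15 in KO (adjusted p = 3.16e-12). Of all genes, 99.8% had a smaller change than Sox4 over this step in each genotype. The step from d4 to d6 was not called in Ctrl, with -0.15 (adjusted p = 0.432), or in KO, with -0.38 (adjusted p = 0.0503); without KO d6 replicate 3, the highest of its group, the KO step was called at -0.57 (adjusted p = 0.00240). Sox4 was lower in KO by -1.07 ± 0.15 at d4 (adjusted p = 2.64e-05) and by -1.30 ± 0.15 at d6 (adjusted p = 2.17e-06), a mean of 44.2 ± 11.9 against 108 ± 10.4 TPM at d6 (SD, n = 3). At d0 the difference was -0.42 (adjusted p = 0.0410). There, 189 reads in Ctrl and 125 in KO gave a Ctrl to KO ratio per library total of 1.41 (95% exact interval 1.12 to 1.79, for counting error only). The ratio was 1.96 (1.87 to 2.05) at d4 and 2.27 (2.16 to 2.39) at d6.

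Sox11 (ENSMUSG00000063632; chromosome 12, 27334264 to 27342574, minus strand, 1 exon) was the lowest of the SoxC genes. Its TPM in Ctrl was 0.632, 0.205 and 0.533 at d0, 14.9, 21.6 and 21.9 at d4, and 26.5, 31.0 and 24.9 at d6. In KO it was 0.179, 0.229 and 0.254 at d0, 9.53, 8.55 and 10.8 at d4, and 12.9, 10.2 and 12.1 at d6. The genotypes overlapped at d0, at 4 to 21 reads per library, and were apart at d4 and d6, so that no KO library at d6 reached the lowest Ctrl library at d4. Sox11 rose by 3.80 ± 0.16 from d0 to d4 in Ctrl (adjusted p = 5.65e-12) and by 3.12 ± 0.16 in KO (adjusted p = 7.89e-11). It was lower in KO by -0.93 ± 0.16 at d4 (adjusted p = 0.000138) and by -1.16 ± 0.16 at d6 (adjusted p = 1.03e-05), with means of 11.7 ± 1.37 and 27.5 ± 3.13 TPM at d6. The change from d4 to d6 was 0.49 in Ctrl (adjusted p = 0.0156), called with voom on the recovered reads, at 0.59 (adjusted p = 0.000286), and with a pseudocount of 5, at 0.42 (adjusted p = 0.00381). In KO it was 0.26 (adjusted p = 0.183). As a ratio of reads per library total, Ctrl was 2.28 times KO at d0 (95% exact interval 1.24 to 4.37, for counting error only), 1.87 times at d4 (1.72 to 2.04) and 2.21 times at d6 (2.04 to 2.38), so the ratio at d6 lay within the interval at d0.

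Sox12 (ENSMUSG00000051817; chromosome 2, 152393611 to 152398063, minus strand) took a course unlike that of Sox4 and Sox11. In Ctrl it was at 22.4, 18.8 and 25.7 TPM at d0, 55.7, 63.6 and 57.9 TPM at d4, and 83.2, 85.4 and 83.2 TPM at d6. In KO it was at 15.4, 14.3 and 13.9 TPM at d0, 55.2, 62.0 and 66.1 TPM at d4, and 62.2, 67.1 and 60.5 TPM at d6. The genotypes were apart at d0, overlapped at d4 and were apart again at d6. Already transcribed in ESCs, Sox12 made up 82.0% to 85.8% of the SoxC sum at d0 in both genotypes.

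Sox12 was lower in KO by -0.57 ± 0.10 at d0 (adjusted p = 0.000188), did not pass at d4, with 0.05 ± 0.10 (95% interval -0.16 to 0.25; adjusted p = 0.698), and was lower by -0.40 ± 0.10 at d6 (adjusted p = 0.00157). A fit to the 6 libraries of d0 alone put the d0 difference at an adjusted p of 0.0111, and median-ratio rescaling reduced the d6 difference to -0.24 (adjusted p = 0.0268). The rise from d0 to d4 was 1.38 ± 0.10 in Ctrl (adjusted p = 2.09e-09) and 2.00 ± 0.10 in KO (adjusted p = 3.60e-11). This step was larger in KO by 0.62 ± 0.13 (adjusted p = 0.00132). From d4 to d6 Sox12 rose by 0.50 in Ctrl (adjusted p = 0.000312), and the KO change was 0.05 (adjusted p = 0.681).

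Together the SoxC genes came to 26.4, 22.9 and 30.0 TPM in Ctrl and 18.5, 17.1 and 16.2 TPM in KO at d0. At d4 the sums were 176, 213 and 205 TPM against 121, 121 and 139.9 TPM, and at d6 222, 232 and 204 TPM against 109, 119 and 129.8 TPM. KO was at 65.4%, 64.2% and 54.4% of Ctrl on the 3 days, without overlap on any day and with an exact two-sided permutation p of 0.1 on each, the smallest that 3 against 3 can give. Sox4 took 60.0% to 61.1% of the sum at d4 in Ctrl and 41.7% to 46.4% in KO, and Sox12 28.2% to 31.6% in Ctrl and 45.7% to 51.2% in KO. At d6 Sox4 took 47.0% to 50.5% in Ctrl and 31.0% to 44.1% in KO. Sox4 thus held the largest share at d4 in Ctrl, and in KO the shares of Sox12 and Sox4 overlapped. The B1 sum was 36.5 to 49.8 times the C sum at d0 in the 6 libraries, and at d6 it was 2.95 to 3.42 times in Ctrl and 4.30 to 5.72 times in KO.

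Sox9 (ENSMUSG00000000567; chromosome 11, 112782224 to 112787760, plus strand, 3 exons) was called lower in KO at d4 and d6. It was in the table only through the Ctrl d6 libraries, so its difference is not ranked among the 6. At d0 the difference rested on 11 reads in Ctrl and 5 in KO. In Ctrl it was at 0.231, 0.137 and 0.613 TPM at d0, 2.38, 3.03 and 4.20 TPM at d4, and 20.2, 17.9 and 15.2 TPM at d6. In KO it was at 0.144, 0.288 and 0.0851 TPM at d0, 0.0815, 0.616 and 0.169 TPM at d4, and 0.533, 0.346 and 0.362 TPM at d6. The 9 KO libraries lay between 0.0815 and 0.616 TPM on all days, close to the 0.137 to 0.613 TPM of Ctrl ESCs, while Ctrl rose on both steps. The KO values are 0 to 8 reads per library, and the TPM of a library without reads is that of the 1 read that the deposited values include.

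In Ctrl, Sox9 rose by 1.66 ± 0.20 from d0 to d4 (adjusted p = 1.21e-06) and by 2.17 ± 0.20 from d4 to d6 (adjusted p = 1.62e-07). In KO the changes were 0.12 (adjusted p = 0.620) and 0.15 (adjusted p = 0.544). Sox9 was lower in KO by -1.70 ± 0.20 at d4 (adjusted p = 2.94e-06) and by -3.72 ± 0.20 at d6 (adjusted p = 1.64e-10), and at d0 the difference was -0.17 (adjusted p = 0.547). At d6, 0.748% of all genes had a more negative difference. Since Sox9 was in the table only through the Ctrl d6 libraries, this rank and the d6 tests are not read against other genes. Summed over 3 libraries, Sox9 had 11, 150 and 707 reads in Ctrl and 5, 9 and 14 reads in KO at d0, d4 and d6. Per library total, Ctrl was 2.06 times KO at d0 (95% exact interval 0.659 to 7.55), 12.4 times at d4 (6.34 to 27.6) and 48.3 times at d6 (28.6 to 88.8), intervals that cover counting error only. With voom on the recovered reads the log2 difference was -4.21 at d4 (adjusted p = 7.74e-05) and -5.47 at d6 (adjusted p = 1.69e-08).

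Between KO and Ctrl, 2 of the 6 genes were called lower at d0 (Sox2 and Sox12), against 16.4% of all genes. At d4, 3 were lower (Sox4, Sox9 and Sox11), against 32.7%, and at d6, 5 were lower (all but Sox2), against 34.3%. Called higher were 0 of the 6 on each day, against 10.6%, 12.7% and 17.9% of all genes. All KO libraries lay below all Ctrl libraries for 3 of the 6 genes on d0, 4 on d4 and 5 on d6, beside shares of 31.5%, 45.7% and 41.1% of all genes. The d6 count includes Sox9, which was in the table only through its high values in the Ctrl d6 libraries. It also includes Sox12, whose call was lost after median-ratio rescaling, so the count is not read against the background.

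**Figure D3:**
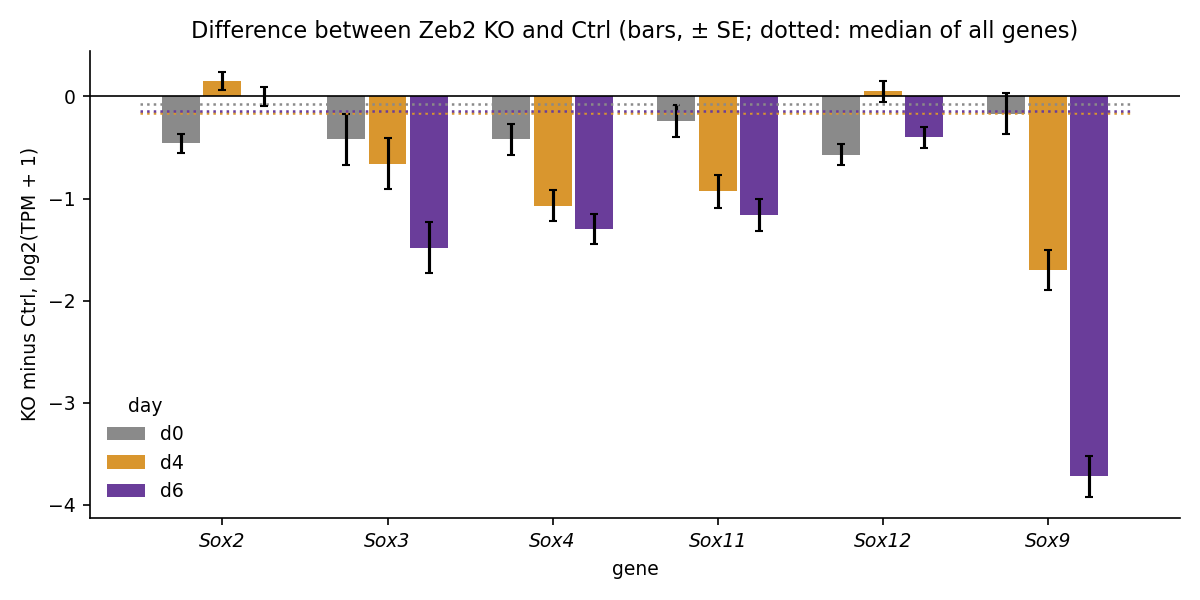
KO minus Ctrl difference on the log2(TPM + 1) scale (bars, with SE) at d0, d4 and d6 for each gene, with dotted lines at the median of all genes on the day (-0.07, -0.16 and -0.14). The bars lengthen from d0 to d6 in Sox3, Sox4, Sox11 and Sox9, to -3.72 in Sox9, while Sox2 and Sox12 are lowest at d0. This scale shortens the bars of genes with few transcripts at d0. The Ctrl to KO ratio of reads did not rise from d0 to d6 in Sox11 (2.28 and 2.21). Nor did it rise from d0 to d4 in Sox3 (1.51 and 1.47).

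Along the course of Ctrl cells, 5 of the 6 were called higher at d4 than at d0, against 45.1% of all genes, and 1 lower (Sox2), against 22.3%. From d4 to d6, 3 rose (Sox3, Sox9 and Sox12), against 22.6%, and Sox2 fell, against 21.5% of all genes. The rise of Sox9 is not read against that share, since Sox9 was in the table only through the Ctrl d6 libraries. In KO, 4 rose from d0 to d4 (all but Sox2 and Sox9), against 35.8%, and 0 fell, against 20.9%. From d4 to d6 in KO, 0 rose, against 21.5% of all genes, and Sox2 fell, against 19.9%. These comparisons share libraries with those between genotypes, so the calls are not independent of each other.

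A moderated F test of both changes since d0 called a different course in KO for 5 of the 6 genes, against 48.7% of all genes. The adjusted p was 1.30e-07 for Sox9, 0.00168 for Sox2, 0.00235 for Sox12, 0.00578 for Sox11, 0.00619 for Sox4 and 0.0330 for Sox3. Of 27 alternatives, 13 lost the call of Sox4 and 11 that of Sox11, among them pseudocount 0.1 (adjusted p = 0.0251 and 0.474) and voom (adjusted p = 0.366 and 0.956). Sox4 lost it without any 1 of Ctrl d0 replicates 1, 2 and 3, Ctrl d4 replicate 3, Ctrl d6 replicates 1 and 2, KO d0 replicates 1 and 2 or KO d6 replicate 2, with adjusted p from 0.0101 to 0.0212. Sox11 lost it without any 1 of Ctrl d0 replicate 2, Ctrl d6 replicate 2, the 3 KO d0 libraries or KO d6 replicate 2, with adjusted p from 0.0107 to 0.0203. The F test call of Sox2 was lost under quantile normalization (adjusted p = 0.0228). That of Sox3 was gained with pseudocount 5 (adjusted p = 0.00277). For Sox11 the difference of the changes from d0 to d6 was -0.92 on the log2(TPM + 1) scale, -0.51 with pseudocount 0.1 and -0.18 with voom. From d0 to d4, the change was smaller in KO for Sox9, by -1.54, and larger for Sox2, by 0.61, and Sox12, by 0.62; these 3 genes were called, against 36.1% of all genes. From d0 to d6, 4 were called (Sox2, Sox4, Sox9 and Sox11), against 43.7%, and from d4 to d6, 1 (Sox9, with -2.02), against 13.4%. Each of these counts, and that of the F test, includes Sox9, which was in the table only through the Ctrl d6 libraries.

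Across the 18 libraries, Sox3, Sox4, Sox11 and Sox12 were correlated, with Pearson's r of log2(TPM + 1) between 0.95 and 0.98 in their 6 pairs. Sox9 had r of 0.60 to 0.69 with these 4, and Sox2 had negative r with all 5 others, from -0.62 to -0.44. The points share the day and the genotype, so r mostly describes the 6 groups. A high r does not mean a like difference between genotypes: at d4 it was 0.05 in Sox12 and -1.07 in Sox4. Among 8395 to 8396 genes with a mean of at least 10 TPM, Sox9 was most like Hoxd3, Cyp26b1 (an enzyme that breaks down retinoic acid) and Sst (somatostatin), with r of 0.990, 0.990 and 0.988. Sox4 was most like Prr36, Fstl1 and Mex3c (0.992 each), and Sox11 most like Pxdn, Rgs12 and 2310022B05Rik (0.991 to 0.992). Closest to Sox3 were Tmsb4x, Sepn1 and Gpsm1 (0.989 to 0.993), and to Sox12 Fndc4, Prkar2b and Kif21a (0.989 to 0.992). Sox2 had the least close matches, Trim28, Lincenc1 and Nf2 (0.939 to 0.946).

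Transcripts of the listed partners of Sox factors were called in both directions at d6. Of 7 POU and PAX partners listed, 5 were in the table, of which 2 were called higher in KO (Pou5f1 and Pou3f1) and 3 lower (Pou3f2, Pou3f3 and Pax6). Of all genes, 17.9% were called higher and 34.3% lower at d6. Pou3f2 and Pou3f3 reached the 5 TPM of the authors' filter in the Ctrl d6 libraries alone. They were thus in the table only through a high value there. Neither their direction nor a median of this list is read as a result. Pou5f1, which encodes the partner of Sox2 in pluripotent cells, had 652 ± 81.7 TPM in KO and 101 ± 11.3 TPM in Ctrl (SD, n = 3), while Sox2 had 538 TPM in both. Pou3f2, a neural partner of Sox2 and Sox11, had 0.254 ± 0.177 TPM in KO and 60.2 ± 6.65 TPM in Ctrl, and Pax6, a partner of Sox2 in eye and neural tissue, 0.825 ± 0.109 and 34.6 ± 0.697 TPM. At d4, 2 partners were higher (Pou5f1 and Pou3f1), 2 lower (Pou3f2 and Pax6) and 1 was not called. Of all genes, 12.7% were called higher and 32.7% lower at d4. At d0 only Pou3f1 was called, lower by -1.30 (adjusted p = 5.20e-06), where 16.4% of all genes were called lower.

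Of 6 genes known as Oct4-Sox2 targets in ESCs, 5 were called higher in KO at d6 (Fgf4, Utf1, Nanog, Pou5f1 and Lefty1) and 1 lower (Fbxo15), with a median of 2.44. The shares of all genes called were 17.9% higher and 34.3% lower at d6, and 12.7% higher and 32.7% lower at d4. Fgf4, an Oct4-Sox2 target through an enhancer downstream of the gene, had 174 ± 45.4 TPM in KO and 15.1 ± 1.19 TPM in Ctrl (3.42, adjusted p = 3.74e-12). At d4, 3 were higher (Fgf4, Utf1 and Pou5f1) and 1 lower (Fbxo15), and at d0 only Lefty1 was called, lower. Of 4 SoxB1 targets in neural progenitors, 3 were called lower in KO at d6 (Cdh2, Hes5 and Nes), and Notch1 did not pass (-0.26, adjusted p = 0.0487). Cdh2 and Hes5 reached 5 TPM in Ctrl libraries alone, so of the 3 only Nes was in the table irrespective of its Ctrl level. Nes, which encodes nestin and carries a SoxB1-bound enhancer in an intron, had 50.1 ± 7.04 TPM in KO and 93.5 ± 5.38 TPM in Ctrl at d6 (-0.90, adjusted p = 3.39e-05). At d4 it was higher in KO (0.53, adjusted p = 0.00382), while Cdh2 and Hes5 were lower. At d0, Cdh2 and Notch1 were lower.

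Of 3 SoxC targets, all 3 were lower in KO at d6, where 34.3% of all genes were, with -2.63 for Dcx (adjusted p = 7.73e-11), -2.19 for Tubb3 (adjusted p = 2.45e-10) and -0.39 for Tead2 (adjusted p = 0.000268). Dcx and Tubb3 encode microtubule proteins of young neurons, and Dcx was in the table only through the Ctrl d6 libraries. Only Dcx was called at d4, lower, and Tubb3 and Tead2 at d0, lower. Of 9 cartilage genes and cofactors of Sox9, 4 were in the table, all of them collagens, and 2 were called lower in KO at d6 (Col2a1 and Col11a2) and 3 at d4 (these and Col9a2), and 0 at d0. The shares of all genes called lower were 34.3% at d6, 32.7% at d4 and 16.4% at d0. Col11a2 reached 5 TPM in Ctrl alone and Col9a3 in KO alone. Col2a1, the main collagen of cartilage, was already lower in KO at d4 (-2.49, adjusted p = 4.32e-09), with 14.9 ± 1.80 TPM against 88.7 ± 16.3 TPM (SD, n = 3). Of 6 neural crest markers in the table, of 8 listed, 5 were lower and 1 (Foxd3) higher in KO on both d4 and d6, and 3 of them (Pax3, Pax7 and Snai2) reached 5 TPM in Ctrl alone; at d0 Ets1 was lower and Tfap2a higher. Their summed TPM at d6 was 53.1 to 65.5 in Ctrl and 45.6 to 53.1 in KO, ranges that meet at 53.1. Most of the KO sum was Foxd3, with a mean of 37.3 TPM in KO and 2.38 TPM in Ctrl. Foxd3 was already at 40.9 TPM in Ctrl and 40.7 TPM in KO at d0, so the sum does not stand for the other markers. The 7 neuron markers summed to 260 to 295 TPM in Ctrl and 100 to 119 TPM in KO at d6, where 4 were called lower and 1 (Elavl3) higher. Their sum was already 268 to 298 TPM in Ctrl at d0. At d4 it was 247 to 264 TPM in Ctrl and 256 to 286 TPM in KO, so it did not rise with differentiation in Ctrl. At d6, 6 endoderm markers, of 9 listed, summed to 92.3 to 133 TPM in Ctrl and 18.8 to 26.9 TPM in KO. Of these markers, 3 of the neuron and 4 of the endoderm lists reached 5 TPM in Ctrl alone. Their part in the values of Sox9 and the SoxC genes was not tested. Of 4 further genes listed (Sox2ot, Gmnn and others), only Gmnn, which encodes the replication regulator geminin, was in the table. Gmnn overlaps none of the 6 Sox genes. Its difference was 0.22 at d6 (adjusted p = 0.0258), and it was called higher at d4 (0.35, adjusted p = 0.00176).

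**Figure D4:**
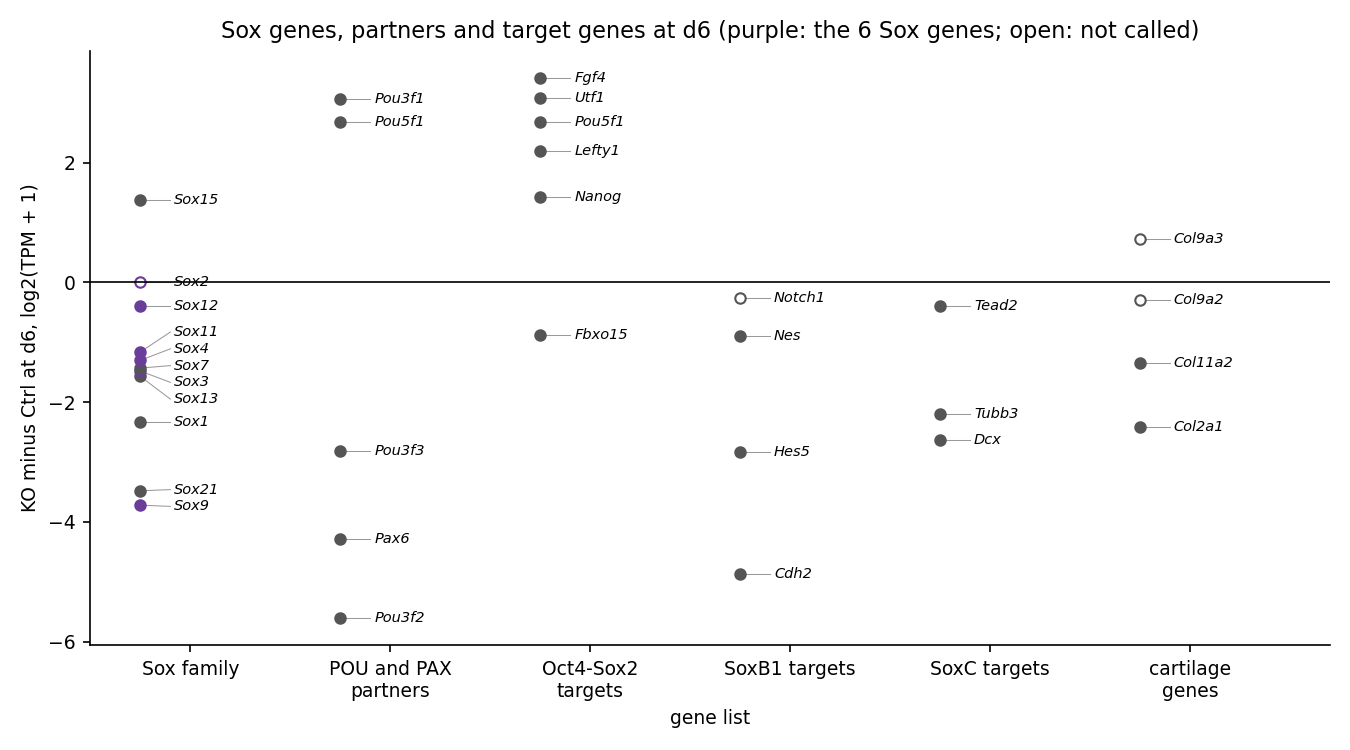
KO minus Ctrl difference at d6 on the log2(TPM + 1) scale for each gene in the table of 6 lists, the Sox family, Sox partners and target genes, with the 6 Sox genes in purple and open circles for genes not called. Sox15 is the one Sox gene called above 0, at 1.37, and 5 of the 6 Oct4-Sox2 targets lie above 1, while the SoxC targets lie below 0.

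Among the Sox family genes that passed the authors' filter, 9 of the 11 genes in the table were called lower in KO, 1 higher (Sox15) and 1 was not called (Sox2) at d6. Of all genes, 34.3% were called lower and 17.9% higher at d6. Of the 9, Sox7, Sox9 and Sox21 reached 5 TPM in Ctrl libraries alone. The 9 include the 5 of the 6 genes followed here that were lower, besides Sox1, Sox7, Sox13 and Sox21. At d4, 7 were lower and 0 higher, and at d0 3 were lower and 0 higher, where 32.7% and 16.4% of all genes were called lower. Sox2 was thus the one gene of the 11 with no call at d6, and its difference of 0.00 stood at 59.8% among all genes in rising order.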

How the data were processed

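RNA-seq of 18 libraries was analysed. The authors deposited TPM, made from single 36 bp reads by alignment to GRCm38 (TopHat2 2.0.13) and gene counts (featureCounts 1.4.6). They kept genes with at least 5 TPM in at least 3 samples, without short noncoding genes and the 20% least variable ones; whether counting used strand was not given. Of 11046 entries, the 81 repeated ones were left out. Reads were recovered as whole numbers for all 10965 genes (within 1e-06), after subtracting 1 added read per gene, and served for depth, read ratios and voom.

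The tests used log2(TPM + 1), a model with 6 group means and limma's moderated statistics with an intensity trend (limma 3.58.1, R 4.3.3). TPM are not counts, so the authors' DESeq2 test was not used. The fit and the recovery of reads were tested on simulated data before use. Summed TPM were compared with exact two-sided permutation tests. Python 3.11.15 drew the figures and read promoters (RefSeq) and 36-base words and positions (GENCODE M21).

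The genes named are the 6 Sox genes, the lists, Zeb2 and, for each Sox gene, the 3 genes of highest Pearson's r over the libraries among genes of mean TPM of at least 10. The 6 genes and all lists were chosen with earlier results of these data known. Pairs of replicates differed by more than sampling noise in every group. Alternatives were pseudocounts of 0.1 and 5, median-ratio and quantile scaling, genes of mean TPM of at least 10 only, a fit to the compared libraries, eBayes without trend, a replicate block, voom, subtraction of the median of 10 Mb around each gene, and leaving out each library.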

Additional observations from a re-analysis of the deposited data

Results flagged for a closer look

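The KO minus Ctrl difference changed between days by limma's test of that change (adjusted p below 0.01 over all genes, on the log2(TPM + 1) scale) in 3 of the 6 genes from d0 to d4, against 36.1% of all genes, in 4 from d0 to d6, against 43.7%, and in 1 from d4 to d6, against 13.4%. From d0 to d4 the KO minus Ctrl difference of Sox2 moved by 0.61 (adjusted p = 0.00102); Sox2 fell in Ctrl and its KO change was not called. That of Sox12 moved by 0.62 (adjusted p = 0.00132), and that of Sox9 by -1.54 (adjusted p = 0.000310). From d0 to d6 the difference moved by 0.46 in Sox2 (adjusted p = 0.00631), by -0.88 in Sox4 (adjusted p = 0.00282), by -0.92 in Sox11 (adjusted p = 0.00266) and by -3.56 in Sox9 (adjusted p = 3.68e-08). The F test of the course lost its call in 13 of 27 alternatives for Sox4, in 11 for Sox11 and in 1 for Sox2 (quantile normalization). The size of the Sox11 value depends on that scale, with -0.18 under voom (F test adjusted p = 0.956). In Sox4 it was -0.77 with pseudocount 0.1 and -0.71 with voom (F test adjusted p = 0.0251 and 0.366). The Ctrl to KO ratio of Sox4 reads was 1.41 at d0 and 2.27 at d6 (95% exact intervals 1.12 to 1.79 and 2.16 to 2.39, for counting error only). The Ctrl to KO ratio of Sox11 reads was 2.28 at d0 and 2.21 at d6, so no change of the ratio is read from it. From d4 to d6 only Sox9 passed, with -2.02 (adjusted p = 6.93e-05), and Sox9 was in the table only through the Ctrl d6 libraries. Sox2 and Sox12 were both lower in KO at d0, by -0.46 and -0.57, and neither was called at d4.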

How the results depend on the processing

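Over the alternatives, 788 of 826 values of single genes kept their side of the threshold, 31 lost a call and 7 gained one, and no called value changed sign. The number of genes with a different course, 5, was 3 with pseudocount 0.1, median-ratio rescaling, quantile normalization, voom on the recovered reads or subtraction of the regional median, and 3 to 5 with 1 library left out (3 without any of Ctrl d0 replicate 2, Ctrl d6 replicate 2, KO d0 replicates 1 and 2, and KO d6 replicate 2). The genes lost were Sox4, Sox11 or both, except under quantile normalization, where they were Sox2 and Sox11. With pseudocount 5, Sox3 gained the call. The number lower in KO at d0, 2, was 1 with a fit to the libraries compared only and 1 with the regional median subtracted. The number called between d4 and d6 in KO, 1, was 1 to 2 with 1 library left out (2 without KO d6 replicate 1 or 3). The cause was not tested. Without 1 library, the summed TPM of SoxC was lower in KO by -107 to -93.6 at d6, -81.8 to -63.5 at d4 and -10.9 to -7.36 at d0.

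Replicate numbers were not treated as pairs, since not every same-numbered pair of Ctrl and KO libraries had correlated deviations above 0.1 (r from -0.08 to 0.23). As a hint from the data, not the design, 14 of 18 libraries correlated best with their own number. A replicate block changed none of the calls of the 6 genes, with for example -3.72 for Sox9 at d6 (adjusted p = 1.84e-09) and -0.46 for Sox2 at d0 (adjusted p = 0.000651). Depth limits Sox9 in KO and Sox3 and Sox11 at d0, with at most 23 reads per library.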
